A study of Mus musculus with 8 samples.

Results

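The acute phase proteins are plasma and secreted proteins whose output rises in inflammation. Followed here by symbol were 10 of their genes, across 8 RNA-seq libraries of mouse hepatocellular carcinoma cells: Saa1, Saa2, Saa3, Lcn2, Orm1, Orm2, Hp, C3, Lbp and Cp. All 10 were found once among the 54838 genes of the files, and all 10 had counts in at least 1 library. Every library derives from the line 3H3, which came from a tumour in the liver of a C57BL/6 MC4R-KO mouse on a high-fat diet and carries HrasQ61L. The 3H3P library (1 library) is this line after knockout of Trp53 by CRISPR/Cas9. The 7 libraries labelled 3H3PM (subclones 1, 2, 3, 6, 7, 8 and 9) are the Trp53-knockout line with ectopic MYC, isolated from tumours grown in nude mice and then cultured in the same medium. Each subclone is a separate isolate with 1 library, and p-values therefore measure the spread between isolates. MYC, growth in a mouse and isolation cannot be told apart in this design, and the variation of 3H3P itself was not measured.

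In liver, IL-6 family cytokines act through the receptor chain gp130 and the transcription factor STAT3, and IL-1 and TNF act through NF-kappaB and C/EBP factors, to raise the transcription of these genes in hepatocytes. Serum amyloid A (Saa1, Saa2) is made mainly by liver and binds lipoproteins, whereas Saa3 is made more in other tissues and in cultured cells. Lcn2 encodes a lipocalin that binds bacterial siderophores, Orm1 and Orm2 encode alpha-1-acid glycoproteins that carry drugs and lipids, Hp encodes haptoglobin, which captures free haemoglobin, C3 encodes the central complement component, Lbp encodes the protein that hands lipopolysaccharide to CD14, and Cp encodes ceruloplasmin, a copper-carrying ferroxidase.

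The 10 genes did not move as a block. C3, Lcn2, Orm1 and Lbp fell in the subclones relative to 3H3P, 15.9 to 32.7-fold for the first 3 and 5.29-fold for Lbp. Hp was higher in all 7 subclones without passing the test, Cp was at about the same level, and the 3 Saa genes ranged so widely over the subclones that the 3H3P library lay within their range. Of the 9 genes that passed the filter on low counts, 4 were called lower and 0 higher (edgeR quasi-likelihood test over 14634 genes, adjusted p under 0.05). Of all tested genes 19.1% were called, 11.8% lower and 7.33% higher. At an unadjusted p under 0.05, 1 member was higher, Hp, and DESeq2 called it. DESeq2 called 21.5% of its genes, 10.3% higher and 11.3% lower, and limma-voom 21.8%, 6.55% higher and 15.3% lower. The 3H3P library lay outside the range of the subclones for 5 of the 9 members and for 57.4% of all tested genes. Every subclone was lower for 4 members and for 30.4% of all tested genes. The median log2 fold change was -1.19 over the 9 members and 0.03 over all tested genes.

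Library totals ran from 12838521 to 17987068 expected counts, and all pairs of subclones differed beyond sampling noise (chi-square per degree of freedom 11.9 to 94.1). Trp53 stood at 212 CPM (counts scaled to library size with TMM) in 3H3P and 46.7 to 66.6 CPM in the subclones. The labels report a frameshift and loss of the protein, which RNA levels cannot check. Mouse Myc was at 85.2 CPM against 3.57 to 11.6 CPM, and counts of the mouse gene thus did not show the introduced MYC; the group names are used as labels. Markers of hepatocytes were low: over 13 markers the summed level was 155 TPM (a level per transcript length) in the 3H3P library and 1.01 to 11.2 TPM in the subclones, Apob and Hnf4a carried most of the sum in 3H3P, at 97.5 and 38 TPM, and were at most 1.44 and 3.80 TPM in a subclone. Alb was at 2.79 TPM and at most 1.71 TPM, and Cyp3a11 and Cps1 had no counts anywhere. The mitochondrial share of counts was 3.18% in 3H3P and 1.97% to 2.31% in the subclones; the part of these differences in the results was not tested. In such bulk cultures, fewer expressing cells and less RNA per cell cannot be told apart.

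The Saa genes lie together on mouse chromosome 7 (GRCm38, 46711998 to 46754313, with Saa4), a stretch of 42316 bases, in the order Saa3, Saa4, Saa1, Saa2. Saa3 (ENSMUSG00000040026.8, 46711998 to 46715700, minus strand) was the most abundant member in 4 of the 8 libraries by TPM. It stood at 5074 TPM in the 3H3P library, where it ranked 16 among all genes. In subclones 1, 2, 3, 6, 7, 8 and 9 it stood at 180, 36.7, 856, 5118, 754, 8366 and 1043 TPM. Subclone 8 was thus above the 3H3P library, subclone 6 close to it, and the others below, subclone 2 the lowest. In CPM subclone 6 was below 3H3P, at 1151 against 1193, with Poisson intervals that did not overlap. In subclone 8 Saa3 ranked 5 of all genes. The highest subclone was 225-fold above the lowest in CPM, and no neighbours in the order 8, 6, 9, 3, 7, 1, 2 had overlapping Poisson intervals (95%, counting error only). Against the 3H3P library the fitted log2 fold change was -1.19 (SE 1.79, edgeR adjusted p = 0.679), a difference within the spread of the subclones. This value also rests on subclones 6 and 8: the mean of the 7 log2 differences was -2.76, limma-voom gave -2.78, log2(TPM + 0.1) gave -2.68, and without subclone 8 edgeR gave -1.9999, none of them called.

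Saa2 (ENSMUSG00000057465.5, 46751790 to 46754313, plus strand) followed the same order except for subclone 9. It was at 69.9 TPM in the 3H3P library, and at 20.2, 6.31, 144, 498, 76.4, 676 and 59.0 TPM in subclones 1, 2, 3, 6, 7, 8 and 9. Subclones 8, 6 and 3 lay above the 3H3P library by CPM and 4 lay below. Saa1 (ENSMUSG00000074115.5, 46740497 to 46742980, minus strand) was the scarcest of the 3, at 7.19 TPM (34 counts) in the 3H3P library. In the subclones it ran from 0.57 TPM in subclone 2 (4 counts, 95% Poisson interval 1.09 to 10.2) through a median of 7.95 to 68.9 TPM in subclone 8 (250 counts). The log2 fold changes of Saa2 and Saa1 were 1.51 (SE 2.07, adjusted p = 0.647) and 1.30 (SE 2.06, adjusted p = 0.695), and neither was called. These fitted values rest on group means that subclones 6 and 8 lead. On the scale of single libraries, the mean of the 7 log2 differences was 0.17 for Saa2 and 0.02 for Saa1, and with limma-voom the value of Saa1 was -0.14.

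The balance within the family differed between libraries. Saa3 stood 72.6-fold above Saa2 in TPM in the 3H3P library, against 5.81 to 17.7-fold in the subclones. The single 3H3P value thus lay outside the range of the subclones. The ratio of Saa2 to Saa1 was 9.72 in the 3H3P library and 9.46 to 12.1 in subclones 2, 6, 7, 8 and 9. It was 16.8 in subclone 3 and 27.2 in subclone 1, the latter resting on 4 counts of Saa1. Saa1 and Saa2 share sequence: 31.5% of the 50-base runs of Saa1 transcripts (GENCODE vM21) also occur in another gene, nearly all of them in Saa2, against 3.57% for Saa3. Reads that fit both had to be divided by the counting program, although all 80 values of the 10 genes came out whole. With Saa1 and Saa2 summed the log2 fold change was 1.51 (adjusted p = 0.644). Saa4, which lies between Saa3 and Saa1 and is expressed constitutively in liver, had 0 to 8 counts in each library.

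The upstream sequences are shown because Saa1 and Saa2 are close copies there and Saa3 is not. RefSeq promoters (GRCm38.p6) were given for 7 of the 10 members. Each line runs 5′ to 3′ on the gene's strand from base -250 to base -51 before the start, and capitals mark matches to the C/EBP motif TTGCNNAA on either strand or to the STAT motifs TTCNNNGAA and TTCNNGAA, which overlap none of the C/EBP matches shown.
Saa1 (chr7:46743031-46743230, minus strand): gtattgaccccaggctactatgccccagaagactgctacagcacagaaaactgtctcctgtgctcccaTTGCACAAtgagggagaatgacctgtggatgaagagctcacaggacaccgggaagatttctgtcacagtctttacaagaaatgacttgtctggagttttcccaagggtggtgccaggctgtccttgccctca
Saa2 (chr7:46751583-46751782, plus strand): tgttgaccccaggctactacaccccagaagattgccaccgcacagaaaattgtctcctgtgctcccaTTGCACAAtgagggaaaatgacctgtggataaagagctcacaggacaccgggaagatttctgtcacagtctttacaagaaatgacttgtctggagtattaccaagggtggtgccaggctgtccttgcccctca
Saa3 (chr7:46715727-46715926, minus strand): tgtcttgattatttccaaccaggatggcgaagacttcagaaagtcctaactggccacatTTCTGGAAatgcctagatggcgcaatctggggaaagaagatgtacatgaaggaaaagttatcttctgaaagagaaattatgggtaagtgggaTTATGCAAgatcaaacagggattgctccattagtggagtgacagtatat
Over all 250 upstream bases Saa1 and Saa2 were identical in 94.8% of 251 aligned columns, and Saa1 and Saa3 in 48.5% of 268. The capitals in Saa1 and Saa2 are the same 8 letters, TTGCACAA. Saa3 has TTATGCAA, the motif on the other strand, and the STAT match TTCTGGAA. The C/EBP motif was matched in the window of 300 bases (250 before and 50 after the start) of all 7 members in the table, for Cp in 1 of its 2 windows, and in 10.8% of all 32851 promoter windows. The STAT motifs were matched in 1 of the 7, Saa3, and in 15.98% of all windows. For NF-kappaB only 1 fixed letter pattern was searched, and it was matched in 0 of the 7 and 4.79% of all. Sites that depart from this pattern were not searched for, so 0 matches does not show that the windows lack NF-kappaB sites. In the Lcn2 window and the Cp window with the C/EBP match, 197 and 195 of the 250 upstream bases lie in GENCODE vM21 exons of the gene. The other Cp window has 0 such bases, and the windows of the other members have 0 to 43. These are letter matches, not sites shown to be bound.

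**Figure D1:**
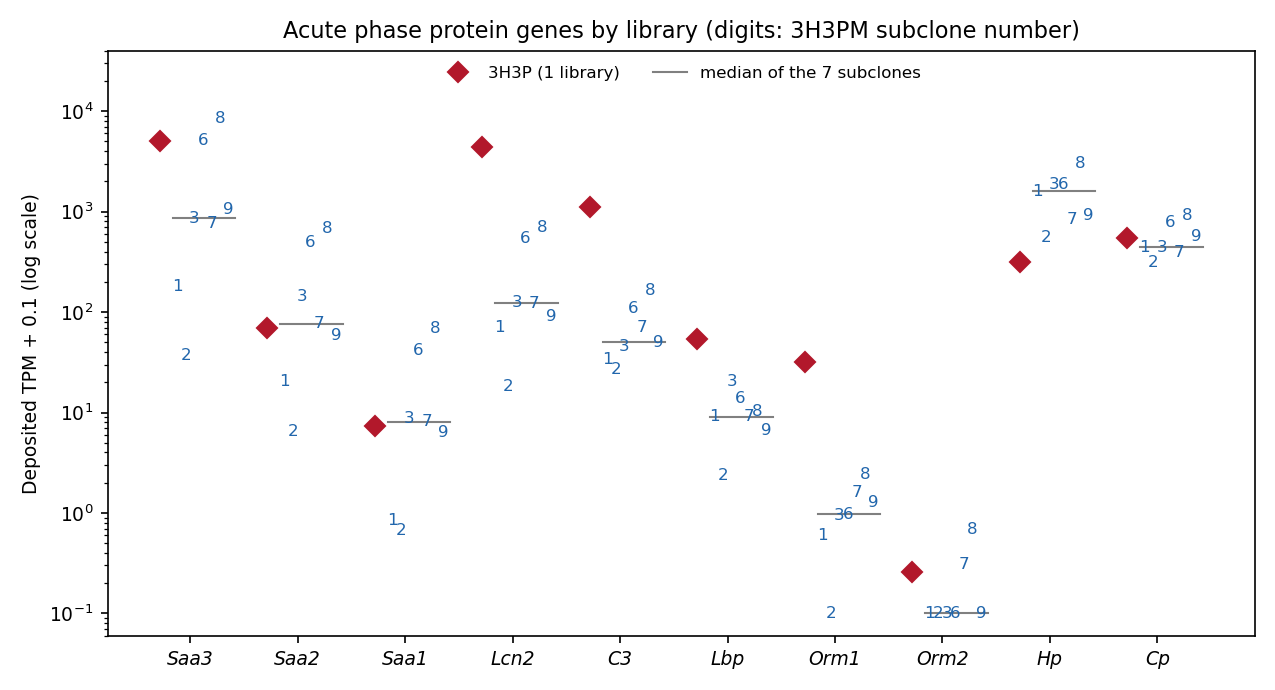
Deposited TPM plus 0.1 on a log axis for each acute phase gene; the diamond is the 3H3P library, digits are the 3H3PM subclones by number and the grey line is their median. Lcn2, C3, Lbp and Orm1 have the diamond above every digit, Hp has it below every digit, and the 3 Saa genes have it among the digits.

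Lcn2 (ENSMUSG00000026822.14, chromosome 2, 32384633 to 32388252, minus strand) was nearly as abundant as Saa3 in the 3H3P library, at 4448 TPM and 35637 counts. In subclones 1, 2, 3, 6, 7, 8 and 9 it was at 70.8, 17.9, 125, 534, 122, 688 and 90.5 TPM. Every subclone lay below the 3H3P library, and subclones 8 and 6 again lay above the other subclones. In CPM the fall was from 2217 to 113 ± 127 (SD, n = 7), 19.7-fold, a fitted log2 change of -4.30 (SE 1.12, adjusted p = 0.0285). The call was lost with DESeq2 (adjusted p = 0.0588), on log2(TPM + 0.1) and log2(TPM + 1) (0.0724 and 0.0676) and without subclone 3 (0.0560). Only subclones 3 and 7 were not separated from each other by counting error. The ratio of Saa3 to Lcn2 in TPM was 1.14 in the 3H3P library and 2.05 to 12.2 in the subclones, Lcn2 thus being lower relative to Saa3 in all 7.

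C3 (ENSMUSG00000024164.15, chromosome 17, 57203970 to 57228136, minus strand) had the highest count of any member in the 3H3P library, 58648 (1120 TPM). In subclones 1, 2, 3, 6, 7, 8 and 9 it was at 33.9, 26.4, 45.3, 109, 69.9, 162 and 49.7 TPM, all below the 3H3P library. It fell from 3649 CPM to 229 ± 161 CPM (SD, n = 7), 15.9-fold, a fitted log2 change of -3.99 (SE 0.64, adjusted p = 0.00356). The call held in all 17 settings run, with adjusted p from 0.00102 to 0.0152. Its spread over the subclones was far smaller than that of the Saa genes, 6.46-fold between subclones 8 and 2. Its upstream bases -250 to -1 hold 1 C/EBP match near the start, in capitals.
C3 (chr17:57228137-57228386, minus strand): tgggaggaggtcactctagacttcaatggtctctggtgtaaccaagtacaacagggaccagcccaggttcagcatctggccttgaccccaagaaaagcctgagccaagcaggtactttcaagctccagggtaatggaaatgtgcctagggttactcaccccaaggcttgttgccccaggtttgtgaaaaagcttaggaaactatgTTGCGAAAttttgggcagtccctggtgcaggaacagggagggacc

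Lbp (ENSMUSG00000016024.9, chromosome 2, 158306493 to 158332852, plus strand) was at 53.9 TPM in the 3H3P library, and at 8.96, 2.25, 20.1, 13.5, 8.99, 10.1 and 6.48 TPM in subclones 1, 2, 3, 6, 7, 8 and 9. All 7 subclones were lower, and here subclone 3, not 8, was the highest. The log2 fold change was -2.40 (SE 0.71, adjusted p = 0.0441; 82.6 CPM against 15.6 ± 9.42 CPM, SD, n = 7). This call was close to the threshold: it was lost without subclone 1, 6, 7, 8 or 9, with adjusted p from 0.0572 to 0.0696, and on both TPM scales (0.0659 and 0.0873).

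The alpha-1-acid glycoprotein genes lie on chromosome 4 (63344560 to 63365878). Orm1 (ENSMUSG00000039196.2, 63344560 to 63348163, plus strand) had 202 counts (31.9 TPM) in the 3H3P library and 3, 0, 6, 5, 7, 12 and 6 counts in subclones 1, 2, 3, 6, 7, 8 and 9. It was nearly silent in every subclone, and counting error separated no neighbours in their order. By the floor used here for a count of 0, subclone 2 may hold up to 3 counts. Its log2 fold change was -5.03 (SE 0.79, adjusted p = 0.00331; 12.6 CPM against 0.383 ± 0.281 CPM, SD, n = 7), called in the 15 settings that tested it. The stricter filter (CPM of at least 1 in 4 libraries) dropped Orm1, so there it was not tested and 3 members were called lower. Orm2 (ENSMUSG00000061540.3, 63362449 to 63365878, plus strand) did not pass the filter. It had 1 count in the 3H3P library and 4 over all subclones (1 in subclone 7 and 3 in subclone 8), a ratio of 0.602 with a 95% exact binomial counting interval of 0.0595 to 29.6. Orm3, between them on the chromosome, had 1 count in the 3H3P library and none in the subclones. Orm1 shares 20.4% of its 50-base runs with other genes, mainly Orm2, and the sum of Orm1, Orm2 and Orm3 was called as well (log2 fold change -4.87, adjusted p = 0.00546).

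Hp (ENSMUSG00000031722.10, chromosome 8, 109575128 to 109579172, minus strand) went the other way. It was at 312 TPM in the 3H3P library and at 1593, 547, 1858, 1865, 831, 2999 and 912 TPM in subclones 1, 2, 3, 6, 7, 8 and 9. The lowest subclone lay above the 3H3P library; every subclone was higher for 27.1% of all tested genes. Hp was the leading member by TPM in subclones 1, 2, 3 and 7. In CPM the values were 252 against 1171 ± 667 (SD, n = 7), 4.64-fold higher, and the spread between subclones kept the difference above the threshold (log2 fold change 2.22, SE 0.89, adjusted p = 0.113). DESeq2 called it (adjusted p = 0.0122), and over all 17 settings the adjusted p ran from 0.0122 to 0.160. The ratio of Hp to Lcn2 in TPM was 0.0701 in the 3H3P library and 3.49 to 30.6 in the subclones, and that of Hp to C3 was 0.279 against 11.9 to 47.0.

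Cp (ENSMUSG00000003617.16, chromosome 3, 19957054 to 20009145, plus strand) varied least of the tested members. It was at 545 TPM in the 3H3P library and at 435, 312, 440, 778, 392, 925 and 561 TPM in subclones 1, 2, 3, 6, 7, 8 and 9. Subclones 8, 6 and 9 lay above the 3H3P library by CPM and 4 lay below. The log2 fold change was 0.00 (SE 0.51, adjusted p = 0.997; 764 CPM against 766 ± 317 CPM, SD, n = 7), and its sign turned in 8 of 16 alternatives, with values from -0.16 to 0.11. Of its 9566 exon bases 108 overlap exons of Hps3 on the other strand. The library kit keeps strand, but no source used here gives the setting used in counting. Hps3 was at 27.6 CPM in the 3H3P library and 19.2 to 29.5 CPM in the subclones.

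**Figure D2:**
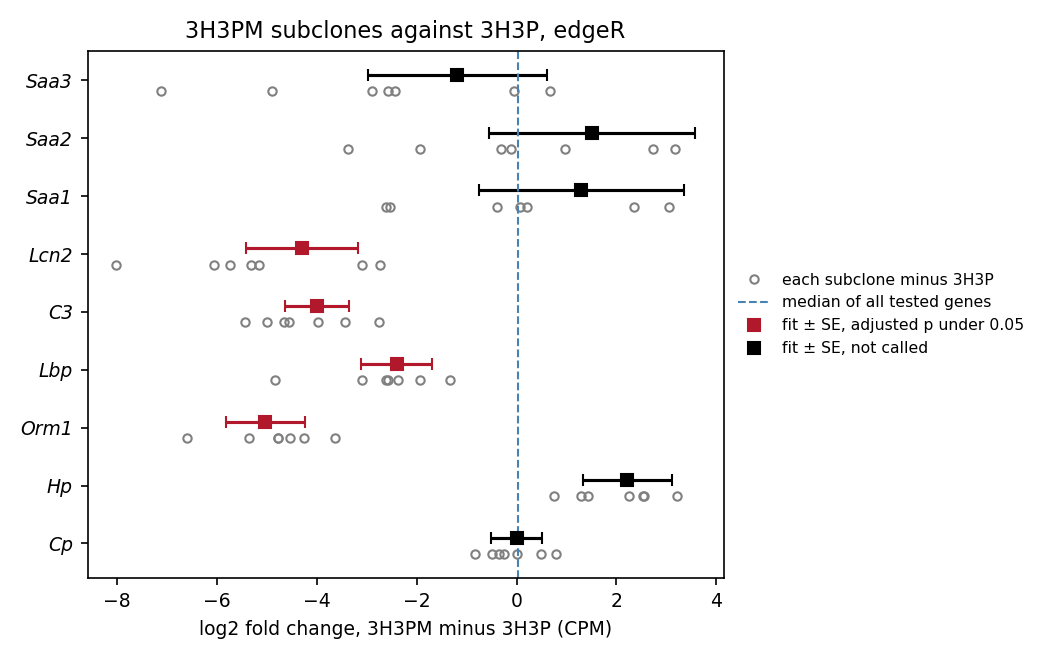
Log2 fold change of 3H3PM minus 3H3P (CPM) for the 9 tested members, as squares with the standard error, with each subclone's own difference as an open circle and the median of all tested genes as a dashed line. Lcn2, C3, Lbp and Orm1 are called lower, from -2.40 to -5.03, and the bars of the 3 Saa genes span 0, where the sign of Saa1 turns with limma-voom and log2(TPM + 0.1) and that of Cp with the scaling.

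The total of the set and its make-up both differed between libraries. Summed over the 10 genes the level was 11661 TPM in the 3H3P library. It was 2344, 950, 3498, 8958, 2263, 13899 and 2729 TPM in subclones 1, 2, 3, 6, 7, 8 and 9, so that subclone 8 exceeded the 3H3P library and subclone 2 was the lowest. Saa3 and Lcn2 made up 43.5% and 38.1% of the sum in the 3H3P library. Lcn2 made up 1.88% to 5.97% in the subclones and C3 1.17% to 3.09%, against 9.60% in the 3H3P library. Hp made up 2.68% there and 20.8% to 68.0% in the subclones, and Cp 4.67% against 6.66% to 32.9%. Saa3 ranged from 3.86% in subclone 2 to 60.2% in subclone 8.

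**Figure D3:**
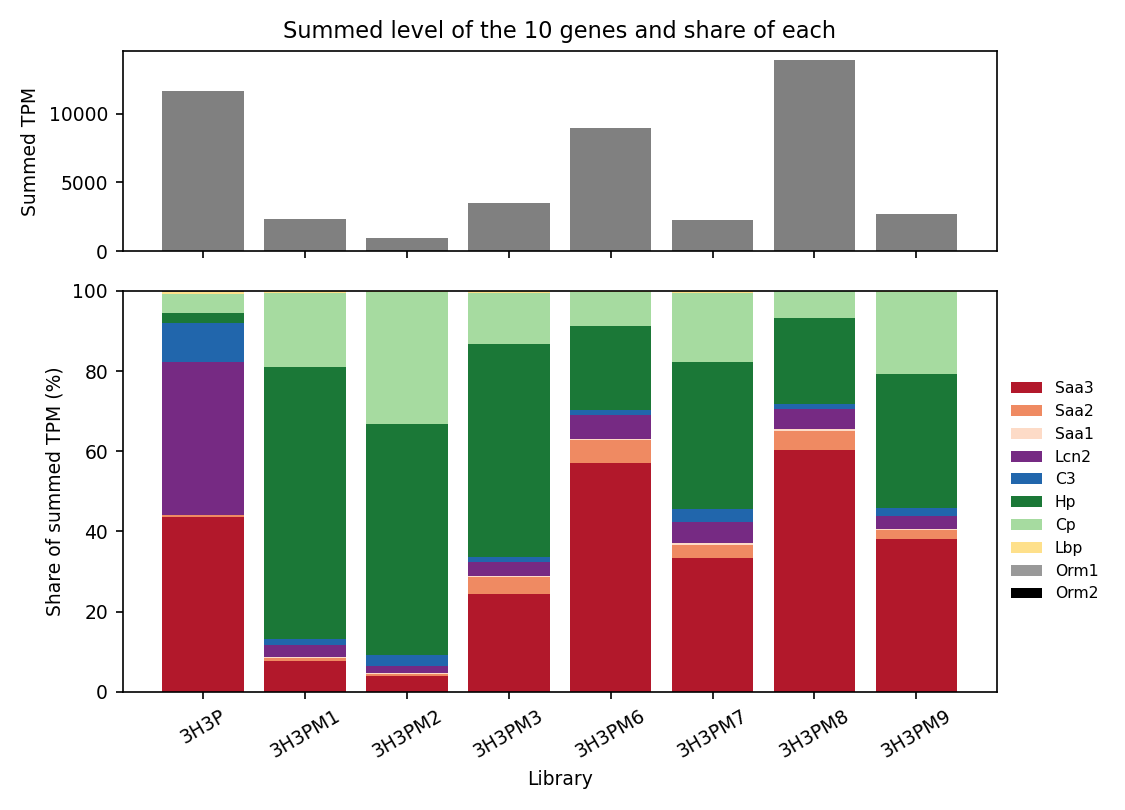
Upper bars, summed TPM of the 10 acute phase genes in each library; lower bars, the share of that sum held by each gene (percent). Saa3 and Lcn2 fill most of the bar in the 3H3P library, Hp leads in subclones 1, 2, 3 and 7, and Saa3 leads in subclones 6, 8 and 9.

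The members differed in their full order over the subclones and shared mainly its ends. Subclone 8 was the highest for 8 of the 9 tested members and subclone 2 the lowest for 8, where subclone 8 was the highest for 20.4% of all tested genes and subclone 2 the lowest for 17.7%. The exceptions were Lbp, highest in subclone 3, and Saa1, for which subclones 1 and 2 had 4 counts each, with subclone 1 lower in CPM and subclone 2 lower in TPM. The SD of log2 CPM over the subclones was 2.67 for Saa3, 2.36 for Saa2, 2.17 for Saa1 and 1.80 for Lcn2. It was 1.11 for Lbp, 0.94 for Orm1, 0.93 for C3, 0.87 for Hp and 0.57 for Cp, with a median of 0.32 over all tested genes. Among the tested genes whose mean log2 CPM lay within 0.5 of theirs, Saa3 and Hp had the widest spread (of 1117 and 114 genes), and Cp was at percentile 96.9 and Orm1 at percentile 58.0. The subclones have no replicate libraries, so these differences have no check beyond counting error.

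Il11, the cytokine in the title of the series, which signals through gp130 and STAT3, was at 0.124 CPM (2 counts) in the 3H3P library. It was at 2.61, 0.831, 3.35, 15.2, 3.51, 31.1 and 2.98 CPM in subclones 1, 2, 3, 6, 7, 8 and 9, with subclones 8 and 6 highest and 2 lowest, as for Saa2, Saa3, Lcn2, C3 and Cp. As a description over these 7 isolates, Pearson's r of log2 CPM with Il11 was 0.98 for Lcn2, 0.96 for C3 and for Cp, 0.94 for Saa3 and for Saa2, 0.83 for Hp and 0.60 for Lbp. Spearman's rho was 0.96 for Lcn2, C3 and Saa2, and 0.68 to 0.86 for the others. How many of all genes reach such values with Il11 was not measured, so they are not shown to be particular to the members. Subclones 6 and 8 as a pair had a chi-square per degree of freedom of 17.7, where subclone pairs ran from 11.9 to 94.1. Without subclones 6 and 8, the 2 farthest from the median of Il11, r over the other 5 was 0.99 for Lcn2, 0.93 for Saa3 and 0.64 for Hp. It was 0.88 for Saa2 and for Lbp, 0.83 for C3 and 0.77 for Cp. Among these 5, subclone 2 lay apart. Its log2 CPM of Il11 minus the mean of the 7 subclones was -2.29, against -0.78 to -0.36 in subclones 1, 3, 7 and 9. Against this order, the 3H3P library held the least Il11 and the most Lcn2 and C3.

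**Figure D4:**
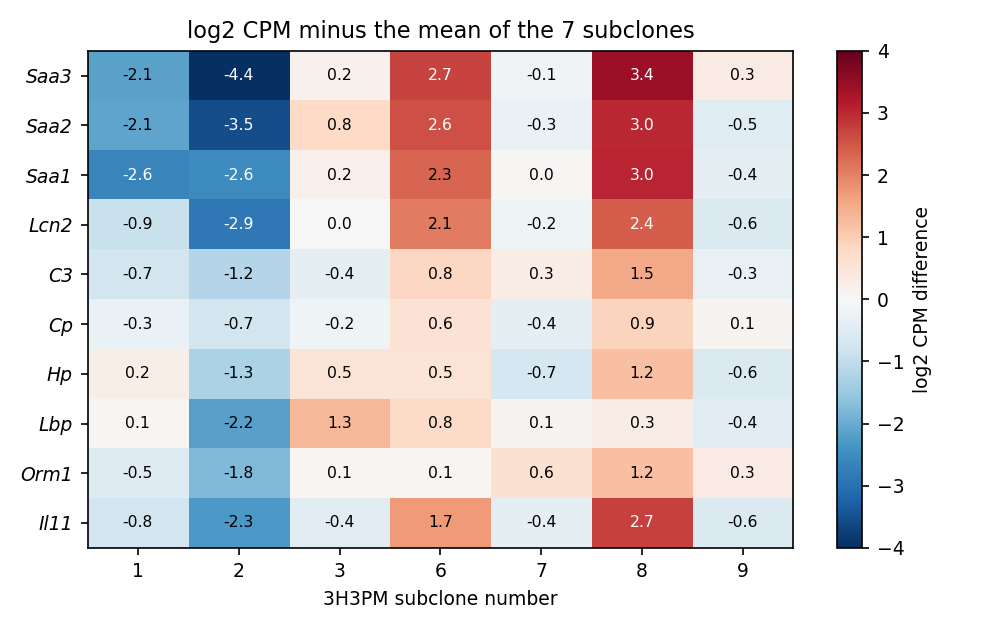
Log2 CPM of each tested member and of Il11 in each subclone, minus the mean of the 7 subclones; red is higher and blue lower. Subclones 6 and 8 are above the mean in every row and subclone 2 is below it in every row, and the colours are strongest for the Saa genes and Lcn2.

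The genes closest in pattern to the members over the 7 subclones were taken by Pearson's r of log2 CPM among 8893 genes of at least 10 CPM. For Saa3 they were the neutrophil-attracting chemokine gene Cxcl2, the cytokine feedback gene Socs2 and the chemokine gene Cxcl5, each with r of 0.99 or more. Cxcl2 ran from 4.73 to 82.8 CPM over the subclones and was at 10.4 CPM in the 3H3P library. Cxcl5 ran from 17.8 to 548 CPM and was at 2097 CPM in the 3H3P library. For Lcn2 they were Txndc11, Nudt4 and the cholesterol synthesis gene Sqle, and for Saa2 Tmem120a, Sh3bgrl and Cox6c. C3 was closest to Camk2g, Dynlt3 and Unc119b, and Cp to Pdcl3, Plxnb2 and Pla1a. Hp was closest to Wbp2 (r 0.99), Acvr1b and Arsa, and Lbp to Gpx4 (r 0.97), Vps29 and Rpl10. With 7 libraries and this many genes, the highest r of any gene is near 1, and the names are a description.

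Other genes of the acute phase response were read from 5 lists. Of 36 other positive acute phase genes 24 were tested, and 12 were lower, 1 higher and 11 not called, where 11.8% of all tested genes were lower and 7.33% higher. The median log2 fold change was -2.63. The filter lets a gene pass on its level in 1 library, so a gene that passed through the 3H3P library alone could only be found lower. This held for Crp (71 counts in 3H3P and 0 over all subclones), Serpina10 (33 and 3), Hamp (35 and 6) and Serpina1b (96 and 10). These genes, named after their values were seen, are part of the 12 and of the median. The alternative complement pathway gene Cfb fell from 64.1 to 2.11 ± 1.35 CPM (SD, n = 7; log2 fold change -4.92, adjusted p = 0.000817), and Cfi, which encodes the protease that cleaves C3b, fell from 56.2 to 1.28 ± 1.40 CPM (adjusted p = 0.00312). Hpx, encoding the haem carrier hemopexin, fell from 49.5 to 0.479 ± 0.514 CPM (adjusted p = 0.00132) and the metallothionein gene Mt1 from 1297 to 436 ± 99.6 CPM (adjusted p = 0.00520). The 1 that rose was the pentraxin gene Ptx3, named after its value was seen. It had 1 count in the 3H3P library and 71.2 ± 50.6 CPM in the subclones. Ptx3 passed the filter through the subclones alone, so the test could only find it higher. With limma-voom it was not called (adjusted p = 0.470). The stricter filter left 5 genes of this list called lower; Hpx and Cfi were not tested there.

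Of 12 negative acute phase genes, which fall in inflammation, 4 were tested, and edgeR called 1 lower and 0 higher (11.8% and 7.33% of all tested genes). Trf, encoding transferrin, fell from 688 to 10.7 ± 4.71 CPM (log2 fold change -6.00, adjusted p = 0.000143). Alb, Serpinc1 and Rbp4 were not called by edgeR, whereas DESeq2 and limma-voom called Alb lower (adjusted p = 0.0163 and 0.00462). Alb had 59 counts in 3H3P and 33 in the 7 subclones together, of which subclone 9 held 30, and without subclone 9 it was called lower (adjusted p = 0.00459), which makes 2 lower of this list. Serpinc1 was at 2.36 against 3.80 ± 0.963 CPM and Rbp4 at 180 against 142 ± 33.1 CPM.

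Of 23 ligands and receptors 18 were tested, with 5 lower and 0 higher by edgeR, beside 11.8% and 7.33% of all tested genes; DESeq2 called 1 higher, Il11 (adjusted p = 0.0144). The TNF receptor gene Tnfrsf1b fell from 144 to 17.4 ± 3.15 CPM (log2 fold change -3.05, adjusted p = 8.58e-05) and the oncostatin M receptor gene Osmr from 140 to 37.3 ± 7.99 CPM (adjusted p = 0.00184). Il1rap, the shared chain of the IL-1 receptors, and the lipopolysaccharide receptor gene Tlr4 fell, with log2 fold changes of -2.02 and -1.49 (adjusted p = 0.0144 and 0.0282). The call of Il1rap was lost on log2(TPM + 0.1) (adjusted p = 0.0550), and that of Tlr4 on both TPM scales and without subclone 3 (0.0539 to 0.0741). The fifth was Il6, named after its value was seen, with 33 counts in 3H3P and 38 over all subclones (adjusted p = 0.0380). It was not called with DESeq2, with no filter or without any 1 of subclones 1, 2, 3, 6, 7 and 9 (adjusted p up to 0.0642). The shared receptor chain gene Il6st was at 348 against 361 ± 67.6 CPM (adjusted p = 0.908) and Il6ra at 29.6 against 28.6 ± 8.73 CPM (adjusted p = 0.943), both named after their values were seen. Without subclone 3, 3 of this list were called lower.

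Of 26 transcription regulators and feedback genes 25 were tested, with 10 lower, 2 higher and 13 not called, beside 11.8% lower and 7.33% higher of all tested genes. The median log2 fold change was -0.76. The liver factor genes Foxa2 and Hnf4a fell, with log2 fold changes of -6.83 and -6.09 (adjusted p = 0.000817 and 0.00462; 1299 and 871 counts in 3H3P, 77 and 83 over all subclones), and the NF-kappaB cofactor gene Bcl3 fell as well (-1.49, adjusted p = 0.00178). The 2 that rose were Egr1 and Foxa1, named after their values were seen. Foxa1 had 0 counts in the 3H3P library and passed the filter through the subclones alone, so the test could only find it higher. With limma-voom Foxa1 was not called (adjusted p = 0.453). Stat3 was at 172 against 179 ± 40.8 CPM (adjusted p = 0.928), Socs3, its feedback target, at 59.2 against 66.6 ± 37.4 CPM (adjusted p = 0.884) and Cebpb at 134 against 216 ± 56.8 CPM (adjusted p = 0.184), these 3 also named after their values were seen. On log2(TPM + 0.1) and log2(TPM + 1), 5 of this list were called lower, and 7 with the stricter filter, which dropped Foxa2 and Hnf4a.

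Of 34 receptors and partners of the member proteins 23 were tested, with 11 lower and 0 higher by edgeR, beside 11.8% and 7.33% of all tested genes. Trf, Cfb and Hpx are given above. Cd55, which shields cells from complement, had 100 counts in the 3H3P library and 1 over all subclones (adjusted p = 0.000304). It passed the filter through the 3H3P library alone, so the test could only find it lower, and the stricter filter dropped it.

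**Figure D5:**
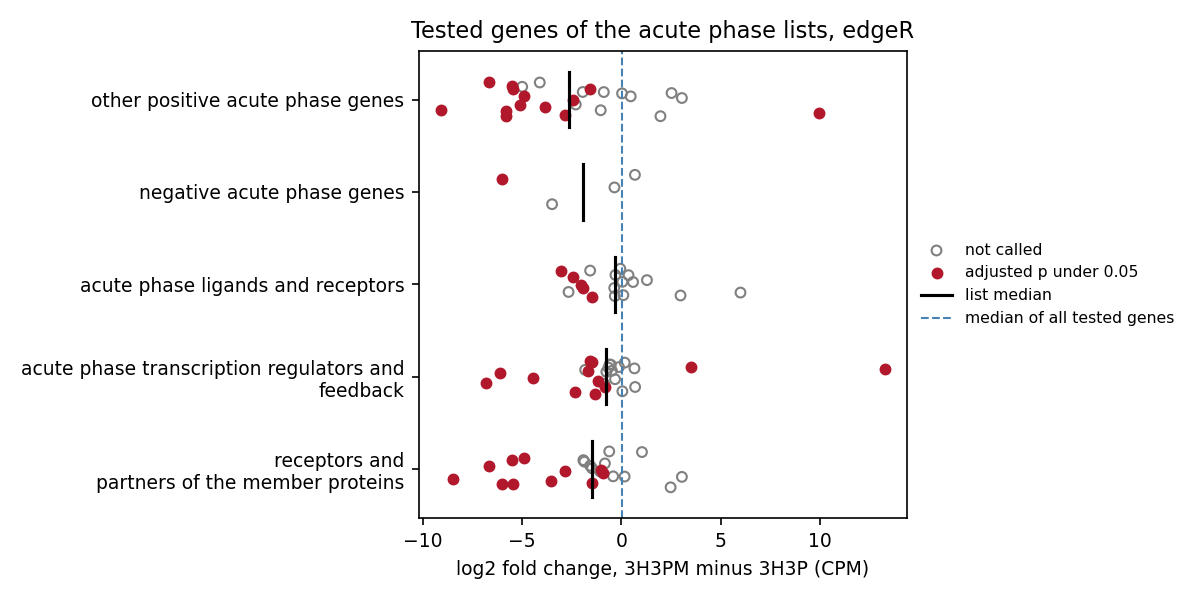
Log2 fold change of 3H3PM minus 3H3P (CPM) for the tested genes of each acute phase list, filled where called by edgeR, with the list median as a black line and the median of all tested genes as a dashed line. The list medians run from -2.63 for other positive acute phase genes to -0.31 for ligands and receptors.

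Lcn2 and Hp are also stored in neutrophil granules, and Saa3, Lcn2 and Orm1 are made by macrophages or adipocytes, so markers of these cells were read beside them. Of 10 neutrophil markers, Mpo, Camp, Ngp, Cxcr2, Ly6g and Retnlg had no counts in any library, and the summed level was 35.4 TPM in the 3H3P library and 0.25 to 22.5 TPM in the subclones, led by S100a8 (31.4 TPM in 3H3P and at most 22.1 TPM in a subclone). Ltf had 70 counts in the 3H3P library and 0 in the subclones. The 10 macrophage markers summed to 366 TPM against 35.8 to 126 TPM, led by Cd14 (358 TPM against 25.4 to 108 TPM), itself an acute phase gene. Csf1r was at 3.52 TPM against 1.2 to 7.46 TPM, and Cd68 at 3.93 TPM against 2.36 to 10.7 TPM. Lyz2 was at 0.63 TPM against 0 to 5.83 TPM, and Itgam at 0.19 TPM against at most 0.09 TPM. For Csf1r, Cd68 and Lyz2 the 3H3P library thus lay within the range of the subclones. The pan-leukocyte gene Ptprc had 0 counts in the 3H3P library and 3 over all subclones. The 8 adipocyte markers summed to 41.7 TPM against 3.70 to 38.8 TPM, with Adipoq, Plin1 and Cfd at 0 throughout. Fabp4 and Pparg carried most of the sum. Fabp4 was at 21.6 TPM in the 3H3P library and 3.04 to 33.7 TPM in the subclones. Pparg was at 18.1 TPM against 0.48 to 5.12 TPM, and Lpl at 2.03 TPM against 0. The 6 endothelial markers summed to 0.02 TPM against 0.04 to 0.44 TPM, with Tie1 and Emcn at 0. The 8 fibroblast and stellate markers summed to 106 TPM against 1.52 to 99.97 TPM, with Dcn at 106 TPM in the 3H3P library and Pdgfra at up to 92.8 TPM in a subclone, and Lrat at 0.

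A gene's deposited length is the mean over its transcripts weighted by abundance, and it was compared where a library held at least 50 counts. It was nearly constant for Hp (1338 to 1341 bases), Saa3 (557 to 566 bases) and Lcn2 (909 to 922 bases), both in the 3H3P library and in the subclones. C3 ranged from 4597 bases in subclone 6 to 5136 bases in subclones 1 and 7, with 4683 bases in the 3H3P library. Lbp was at 2330 bases in the 3H3P library and 2398 to 2489 bases in the subclones that passed, and Cp at 2150 against 2179 to 2293 bases. For Lbp and Cp the 3H3P library thus had the shortest mean transcript, a description with no test. For Saa2, Saa3, Lcn2, Hp and C3 it lay within the range of the subclones. How often this library has the shortest length over all genes was not measured.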

How the data were processed

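The 8 RNA-seq libraries, 1 of 3H3P and 7 of 3H3PM, were grouped by title. The submitters' processing notes list GRCm38 (mm10) and the tools STAR, RSEM, FastQC and DESeq2, without versions or roles. Per the labels' protocols, the kit was directional. The authors deposited an expected count per gene from RSEM, in which a read matching several genes is shared among them (3099 to 3459 genes per library held fractions). TPM values, deposited beside the counts, gave levels between genes, and deposited lengths as a description.

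Expected counts were rounded and tested with edgeR 4.0.16 (R 4.3.3): filterByExpr by group, TMM scaling, quasi-likelihood F test, Benjamini-Hochberg adjustment over all tested genes, calls under 0.05. The 7 subclones gave the spread (6 residual degrees of freedom); the single 3H3P library is taken to have the same variation. Standard errors are the log2 fold change divided by the square root of F. Log2 CPM used a prior count of 2. DESeq2 1.42.0, limma 3.58.1 and limma on log2 TPM were alternatives, beside other scalings, filters, summed paralogs and leaving out each subclone. Alignment and intervals used Python 3.11.15 and scipy 1.17.1. Depth was 12838521 to 17987068 counts; 95% Poisson and binomial intervals and the floor of 3 counts cover counting error only. Positions are from GENCODE vM21.

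The members and lists were chosen with earlier results of these data known. Named genes were the members, Il11, up to 4 genes per list with the smallest p, and the 3 most alike per member; others are marked. Promoters of Hp, Lbp and Orm1 and protein sequences are not shown. A named gene of the regulator list and a motif are not reported here.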

Additional observations from a re-analysis of the deposited data

Results flagged for a closer look

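Over the 7 subclones, 28 named genes were checked for a library whose gap to its nearest neighbour took up most of the range. Chance gives about 1 in 20 genes, so the 2 that were found are close to the chance number. Alb, encoding albumin, was at 2.08 CPM (30 counts) in subclone 9 and at 0 to 0.110 CPM in the other subclones. Cd55 was at 0.0662 CPM in subclone 6, which is 1 count, and had no counts in the other subclones. A gene with a lone count of this kind is always found by the check. None of the 10 acute phase members was found by this check.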

How the results depend on the processing

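Of the 4 members called lower, C3 kept its call under all 16 alternatives. Orm1 kept it where tested, but the stricter filter dropped it, leaving 3 members lower, and summing paralogs replaced it. Lcn2 was not called with DESeq2 (log2 fold change -4.31), on log2(TPM + 0.1) (-5.09) or log2(TPM + 1) (-5.07). Its call was also lost without subclone 3 (-4.19), and without 1 subclone its value ran from -4.85 to -4.09. Lbp was not called on log2(TPM + 0.1) (-2.64) or log2(TPM + 1) (-2.50). Its call was also lost without any 1 of subclones 1, 6, 7, 8 and 9, and without 1 subclone it ran from -2.69 to -2.21. Members called lower were thus 2 on each TPM scale, and members called higher were 1 with DESeq2, Hp at 2.20. Saa1 turned sign with limma-voom (-0.14) and log2(TPM + 0.1) (-0.090). Cp turned sign with RLE scaling (-0.013), with the stricter filter (-0.013), with DESeq2 (-0.012), with limma-voom (-0.10) and on log2(TPM + 0.1) (-0.085) and log2(TPM + 1) (-0.084), and without 1 subclone it ran from -0.16 to 0.11. The cause was not tested.

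Over all genes 1072 were called higher and 1727 lower. Without 1 subclone the number higher ran from 669 (without subclone 3) to 1185, and log2(TPM + 0.1) gave 1347 higher and 1329 lower. Other positive acute phase genes had 0 higher with limma-voom and 5 lower with the stricter filter, which tests fewer genes. Negative acute phase genes had 2 lower with DESeq2 and with limma-voom, Trf and Alb, and 1 to 2 without 1 subclone. Ligands and receptors had 1 higher with DESeq2, Il11, and 3 lower on log2(TPM + 0.1), and 3 to 6 lower without 1 subclone. Regulators had 1 higher with limma-voom and 5 lower on log2(TPM + 0.1) and log2(TPM + 1). Partners had 6 lower with the stricter filter. The SD over the subclones of Orm1 was 1.55 with a prior count of 0.5 and 0.55 on log2(TPM + 1), and that of Orm2 was 1.20 and 0.25, both at a few counts. No paired analysis was possible because 3H3P has 1 library and the subclone numbers name separate isolates, not pairs. Depth limits Orm1, Orm2 and Saa1 in subclones 1 and 2, where 4 counts or fewer stood for Saa1.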
